A study of Mus musculus with 8 samples.

Results

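Genes of the hypoxia response and of glycolysis were followed in CT26 tumors under 4 treatments. The list holds 34 genes, taken by the gene name that the array annotation gives to a probe, and covers 76 of 56605 mouse probes. All 34 genes had at least 1 probe well above background on both arrays of a group, and 66 of their 76 probes were tested. CT26 is a colon carcinoma line of BALB/c mice, and 500000 cells were implanted under the skin of the flank. Mice then received vehicle, a daily oral dose of 75 mg/kg TP-16 (BY001 in the sample labels), 2 intraperitoneal doses a week of anti-PD-1 antibody (50 µg per mouse), or the combination at the same doses, for 2 weeks. TP-16 antagonizes the prostaglandin E2 receptor EP4, and the antibody blocks the inhibitory T-cell receptor PD-1. Whole tumor RNA of 2 samples per group was hybridized to 8 one-colour arrays on 1 slide. It is not stated if a sample was a single tumor or pooled ones, so that p-values measure the spread between these samples, which may be technical. Vehicle and TP-16 arrays shared 1 slide row, and anti-PD-1 and combination arrays the other, so that slide row and antibody cannot be told apart. In the same way, slide column and TP-16 treatment cannot be told apart.

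Cells short of oxygen stabilize HIF-1α, the product of Hif1a, because the prolyl hydroxylases Egln1 and Egln3 need oxygen to mark it for breakdown. The stabilized factor induces glucose transporters, nearly every enzyme from hexokinase to lactate dehydrogenase, and the pyruvate dehydrogenase kinase Pdk1, which holds pyruvate back from the mitochondria. It also induces the angiogenic factor Vegfa, the pH regulator carbonic anhydrase Car9 and the mitophagy receptor Bnip3. Tumor cells, activated T cells and inflammatory macrophages all use glycolysis heavily, also where oxygen is plentiful. RNA of whole tumor does not tell these cells apart, nor fewer cells of a type from less RNA per cell.

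Levels are log2 intensities minus the 75th percentile of the array, so that 0 is the 75th percentile and a difference of 1 is a doubling. Where several probes name 1 gene, values are those of the brightest, by the mean of the 8 arrays. Differences were tested in limma over 31912 probes, and a gene is called where p after Benjamini-Hochberg adjustment was no higher than 0.05. On this scale the median difference of all 21497 tested genes from vehicle was -0.24 in the combination, -0.15 with TP-16 and -0.10 with anti-PD-1, and it was farthest below 0 among the brightest probes. The member medians are therefore set against these values, and values after quantile or cyclic loess normalization, which follow the intensity, are given where a vehicle comparison of a named member turns. The authors' deposited log2 values gave member medians against vehicle of 0.51 with TP-16, 0.50 with the antibody and 0.55 with both, equal to those after quantile normalization.

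The promoters of the members are shown because ACGTG, a form of the core of the site that HIF binds, was the motif searched for in them. Other forms of the core were not searched for. RefSeq (GRCm38.p6) names all 34 genes, Ero1l as Ero1a, and gives promoter windows for 32 of them, each with 250 bases before and 50 after a transcript start. No window was given here for Slc2a3 and Ndrg1. ACGTG was found on either strand (CACGT on the printed one) in 23 of the 32 members (71.9%), against 21.8% of 27025 genes with a window. By window, 26 of 46 (56.5%) held it, against 19.6% of 32851. Of the 22 members with 1 window, 15 held it, against 19.4% of 22862 such genes. By direction in the combination, it was in 3 of 5 members that were higher, 3 of 4 that were lower and 17 of 23 that were not called. A match is a description of the letters, and overlapping matches on the 2 strands (CACGTG) count as 2. The 250 bases before the start are printed 5′ to 3′ for 6 called members, with the letters of each match in capitals. Hk2, P4ha2, Pfkfb3 and Pfkp rose in the combination, and Ldha and Pgk1 were lower with the 75th percentile but above 0 after quantile or cyclic loess normalization.
Hk2 (chr6:82774455-82774704, minus strand): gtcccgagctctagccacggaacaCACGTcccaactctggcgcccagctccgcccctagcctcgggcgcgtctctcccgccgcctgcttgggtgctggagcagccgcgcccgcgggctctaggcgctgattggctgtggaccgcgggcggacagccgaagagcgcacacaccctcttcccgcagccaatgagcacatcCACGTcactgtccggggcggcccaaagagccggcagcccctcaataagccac
P4ha2 (chr11:54100674-54100923, plus strand): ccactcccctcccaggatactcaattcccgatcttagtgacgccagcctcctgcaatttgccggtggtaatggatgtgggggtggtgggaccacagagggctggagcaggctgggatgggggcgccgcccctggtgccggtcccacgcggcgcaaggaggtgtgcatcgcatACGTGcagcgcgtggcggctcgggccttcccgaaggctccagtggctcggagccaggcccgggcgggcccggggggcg
Pfkfb3 (chr2:11553930-11554179, minus strand): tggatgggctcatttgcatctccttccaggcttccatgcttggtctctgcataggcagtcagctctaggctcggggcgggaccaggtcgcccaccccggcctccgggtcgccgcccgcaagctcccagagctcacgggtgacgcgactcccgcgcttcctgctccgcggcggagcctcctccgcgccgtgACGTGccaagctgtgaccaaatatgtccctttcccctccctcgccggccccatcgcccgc
Pfkp (chr13:6648772-6649021, minus strand): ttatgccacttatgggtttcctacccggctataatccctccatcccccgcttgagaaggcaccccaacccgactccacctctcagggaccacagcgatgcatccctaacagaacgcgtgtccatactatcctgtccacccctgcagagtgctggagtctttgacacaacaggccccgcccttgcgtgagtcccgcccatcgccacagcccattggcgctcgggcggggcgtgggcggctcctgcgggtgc
Ldha (chr7:46845554-46845803, plus strand): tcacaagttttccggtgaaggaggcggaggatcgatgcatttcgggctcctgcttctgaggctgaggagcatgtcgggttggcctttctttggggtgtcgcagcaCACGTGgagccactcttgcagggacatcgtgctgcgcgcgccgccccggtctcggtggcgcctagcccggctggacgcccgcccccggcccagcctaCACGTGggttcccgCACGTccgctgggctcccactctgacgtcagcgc
Pgk1 (chrX:106186850-106187099, plus strand): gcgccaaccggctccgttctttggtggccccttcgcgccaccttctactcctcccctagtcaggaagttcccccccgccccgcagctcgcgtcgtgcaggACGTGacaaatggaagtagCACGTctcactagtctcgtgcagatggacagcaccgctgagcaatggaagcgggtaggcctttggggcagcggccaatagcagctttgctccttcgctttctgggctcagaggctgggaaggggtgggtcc
Hk2 holds matches at positions -226 and -52 from the start, Pgk1 at -150 and -131, P4ha2 at -78 and Pfkfb3 at -60 within the printed bases. Ldha holds 5, of which those at -145 and -144, and at -48 and -47, overlap. Pfkp holds no ACGTG or CACGT in this window, and other forms of the core were not searched for.

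In the combination against vehicle, 6 of the 34 genes were higher and 4 lower with this scaling, and the 10 called of 34 stand against 35.6% of all tested genes. The 6 that rose are set against 9.6% of all genes, and the 4 that fell against 26%. The risers were the hexokinase Hk2, the phosphofructokinase Pfkp, the 2 enzymes that make fructose 2,6-bisphosphate (Pfkfb3, Pfkfb4), the glucose transporter Slc2a3 and the collagen prolyl hydroxylase P4ha2. Lower were Hk1, Pgk1, Eno1 and Ldha, of which Pgk1, Eno1 and Ldha turned above 0 with quantile or cyclic loess normalization and Hk1 stayed below 0 without being called. The median of the members was 0.28, against -0.24 over all genes. At unadjusted p of at most 0.05 the combination had 13 higher members (all genes 14.4%) and 4 lower (all genes 35.6%). After quantile normalization these were 25 (all genes 20.5%) and 1 (all genes 23.9%), and with cyclic loess 26 and 1 (21.9% and 22.5%). The threshold of the study's methods was a fold of 2 or more with an unadjusted p no higher than 0.05 in a t-test. With the unadjusted p of limma in its place, 3 were higher past this threshold (all genes 6.65%). Both combination arrays lay above both vehicle arrays for 18 members (all genes 23.2%) and below both for 4 (all genes 50.3%).

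**Figure D1:**
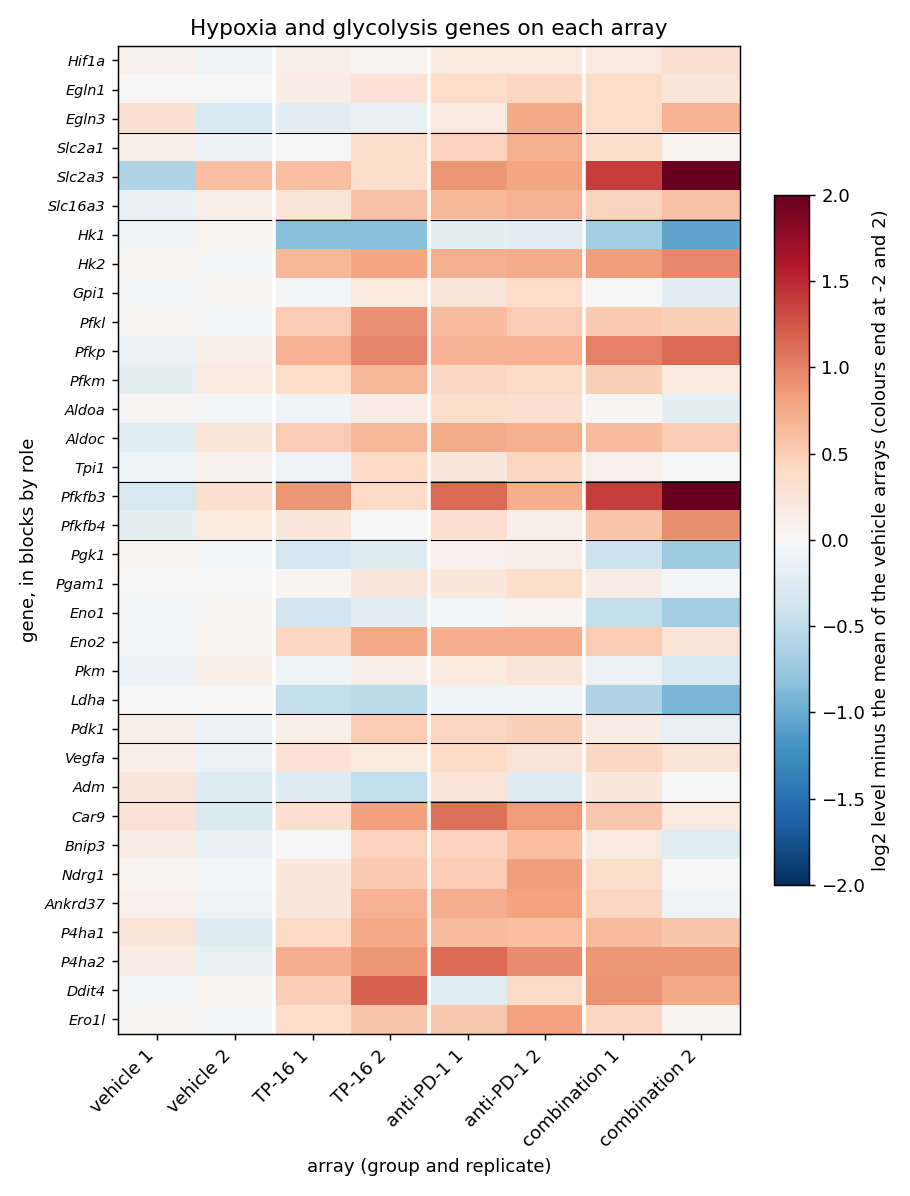
Log2 level of each of the 34 genes (rows, in blocks by role) on each of the 8 arrays (columns), minus the mean of the 2 vehicle arrays; red is higher and blue is lower than vehicle. Most rows are red in the 3 treated groups, Slc2a3 and Pfkfb3 are deepest on the combination arrays, and Hk1, Pgk1, Eno1 and Ldha are blue on the TP-16 and combination arrays, where Pgk1, Eno1 and Ldha lie above 0 in the combination after quantile normalization.

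In the combination, 1 of 3 transport genes was called higher, and of 9 early glycolytic enzymes 2 were higher and 1, Hk1, lower, with all genes at 9.6% higher and 26% lower. Slc2a3 (GLUT3, a high-affinity glucose transporter) read -2.29 and -1.10 on the vehicle arrays, -1.09 and -1.34 with TP-16, -0.81 and -0.91 with anti-PD-1, and -0.31 and 0.35 with the combination. The combination lay above every other array, and the vehicle arrays were the farthest apart. The log2 difference from vehicle was 1.71 (SE 0.41, adjusted p = 0.0290, 3.28-fold). It was 1.12 without vehicle replicate 1 (adjusted p = 0.0501), and the call was also lost without either anti-PD-1 array (adjusted p = 0.0551 each), combination replicate 1 (0.0534) or combination replicate 2 (0.155).

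Hk2, the inducible hexokinase that traps glucose as its phosphate, read 1.85 and 1.76 on the vehicle arrays, 2.47 and 2.60 with TP-16, 2.51 and 2.54 with anti-PD-1, and 2.64 and 2.77 with the combination. All 6 treated arrays were above both vehicle arrays. Its rise in the combination was 0.90 (SE 0.11, adjusted p = 0.0102, 1.86-fold), from 1.80 ± 0.064 to 2.70 ± 0.089 (mean ± SD of 2 arrays). Pfkp, the platelet form of phosphofructokinase, read 2.80 and 3.02 on the vehicle arrays, 3.61 and 3.89 with TP-16, 3.61 on both anti-PD-1 arrays, and 3.92 and 4.05 with the combination. Again the vehicle arrays were the lowest, and the rise in the combination was 1.08 (SE 0.14, adjusted p = 0.0102, 2.11-fold). The 4 tested probes of Pfkp differed by 0.92 to 1.17, of which 3 were called, and Pfkp was one of 3 members past the methods' threshold, with Slc2a3 and Pfkfb3.

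Pfkfb3 makes fructose 2,6-bisphosphate, the strongest activator of phosphofructokinase. It read 0.90 and 1.53 on the vehicle arrays, 2.10 and 1.62 with TP-16, 2.34 and 1.94 with anti-PD-1, and 2.60 and 3.24 with the combination, a rise of 1.70 (SE 0.33, adjusted p = 0.0171, 3.26-fold). The groups did not overlap between vehicle and combination, and the single agents lay between. Pfkfb4, a second enzyme of the same kind, read 0.83 and 1.21 on the vehicle arrays, 1.24 and 1.03 with TP-16, 1.35 and 1.15 with anti-PD-1, and 1.57 and 1.95 with the combination. Its rise of 0.74 (SE 0.20, adjusted p = 0.0406) was called with little room. The adjusted p was 0.0517 after quantile normalization and 0.0601 with the replicate block, and the call was lost when any array other than vehicle replicate 2 was left out (0.0537 to 0.194), with a rise of 0.54 without vehicle replicate 1.

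Among the other early enzymes, no rise was called at adjusted p at the brightest probe. The dimmer tested probes of Aldoc were called higher, at 0.91 and 0.75 (adjusted p = 0.0285 and 0.0474). The liver phosphofructokinase Pfkl read 2.03 and 1.99 on the vehicle arrays and 2.53 and 2.48 with the combination, a difference of 0.50 (SE 0.15, adjusted p = 0.0539). Aldoc, a brain-type aldolase, differed by 0.57 (SE 0.18, adjusted p = 0.0583), Pfkm by 0.33 (adjusted p = 0.203), the triose isomerase Tpi1 by 0.05, the muscle-type aldolase Aldoa by -0.08 and the glucose phosphate isomerase Gpi1 by -0.12 (adjusted p of 0.533 or more). The lactate exporter Slc16a3 lay closest to the threshold on its outer side, at 0.52 (SE 0.16, adjusted p = 0.0501), and Slc2a1, the ubiquitous transporter GLUT1, differed by 0.21 (SE 0.20, adjusted p = 0.446). After quantile normalization Slc16a3, Aldoa, Gpi1, Pfkl and Tpi1 were called higher, at 0.74, 0.82, 0.61, 0.54 and 0.70.

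Hk1, the hexokinase of most resting tissues, was lower at its brightest probe with this scaling. That probe (chr10:61731230-61731288, mm9) read 6.54 and 6.69 on the vehicle arrays, 5.77 and 5.78 with TP-16, 6.42 and 6.39 with anti-PD-1, and 5.92 and 5.56 with the combination. The TP-16 and combination arrays formed a low set, with a difference of -0.87 for the combination (SE 0.15, adjusted p = 0.0129). The difference was -0.40 after quantile normalization (adjusted p = 0.0795) and -0.34 with cyclic loess (0.0776). A second probe close by (chr10:61731856-61731915) read 3.66 and 4.01 on the vehicle arrays and 4.70 and 4.61 with the combination, a rise of 0.82 (SE 0.24, adjusted p = 0.0451), which was 1.04 after quantile normalization. The 2 probes of Hk1 were thus called in opposite directions, and the mean over its probes gave -0.25 (adjusted p = 0.411).

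Of the 6 late-step genes, 3 were called lower with this scaling (all genes 26%), and all 3 lay above 0 with quantile or cyclic loess normalization. Ldha makes lactate from pyruvate. It read 8.27 on both vehicle arrays, 7.79 and 7.75 with TP-16, 8.17 and 8.18 with anti-PD-1, and 7.67 and 7.36 with the combination. The combination and TP-16 arrays were the low ones, and the difference of -0.76 (SE 0.13, adjusted p = 0.0131) became 0.02 after quantile normalization and 0.01 with cyclic loess. Its dimmer probe (chr7:54103010-54103069, mm9) differed by 0.28 (adjusted p = 0.0823), against the brightest (chr7:54110937-54110996). Pgk1, which makes the first ATP of the pathway, read 9.24 and 9.15 on the vehicle arrays, 8.85 and 8.94 with TP-16, 9.30 and 9.32 with anti-PD-1, and 8.76 and 8.49 with the combination. Its difference of -0.57 (SE 0.13, adjusted p = 0.0242) turned to 0.37 after quantile normalization (adjusted p = 0.0347) and 0.34 with cyclic loess (0.0476), so that it was called in both directions. Its call was also lost without vehicle replicate 1 (adjusted p = 0.0679), vehicle replicate 2 (0.0540), either anti-PD-1 array (0.0520 each) or combination replicate 2 (0.119).

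Eno1, the common enolase, read 7.83 and 7.89 on the vehicle arrays, 7.49 and 7.63 with TP-16, 7.84 and 7.92 with anti-PD-1, and 7.39 and 7.17 with the combination. Its difference of -0.58 (SE 0.12, adjusted p = 0.0220) became 0.09 after quantile normalization, and its call was lost without vehicle replicate 2 (adjusted p = 0.0662) or combination replicate 2 (0.118). Eno2, the neuronal enolase, differed by 0.38 (SE 0.16, adjusted p = 0.115), Pgam1 by 0.05 (adjusted p = 0.763) and the pyruvate kinase Pkm by -0.21 (SE 0.14, adjusted p = 0.294). After quantile normalization Eno2, Pgam1, Pkm and Pgk1 were called higher, so that 4 of the 6 late-step genes rose (all genes 13%) and 0 fell (all genes 14.5%), against 0 and 3 with the 75th percentile. Pdk1, the brake on pyruvate oxidation, differed by -0.01 (SE 0.19, adjusted p = 0.970), which was 0.09 after quantile normalization and 0.16 with cyclic loess.

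**Figure D2:**
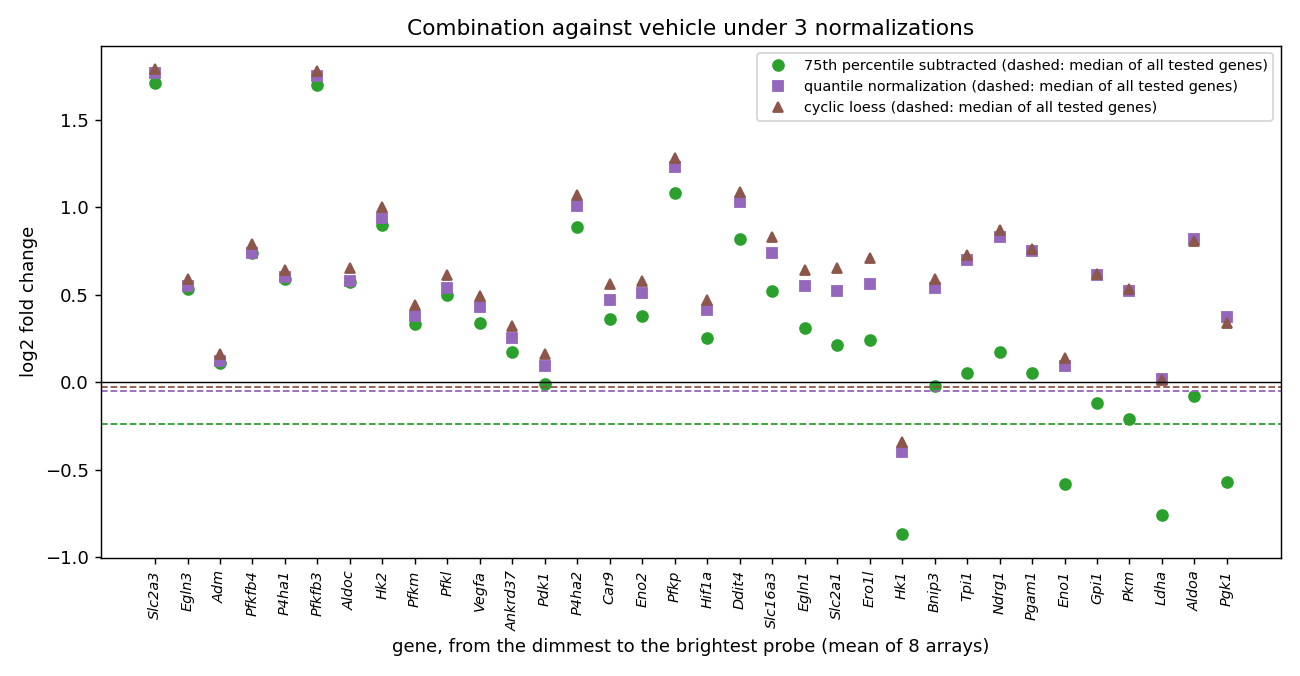
Log2 fold change of each gene in the combination against vehicle (points) with the 75th percentile subtracted, after quantile normalization and after cyclic loess, ordered from the dimmest to the brightest probe; the dashed lines give the median of all tested genes under each. The 3 points of a gene lie together for dim probes and part for the brightest, where Eno1, Ldha and Pgk1 move from below 0 to above 0 and Hk1 stays below.

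Among the 8 other HIF targets, the median difference in the combination was 0.30, with 1 called higher (all genes 9.6%). P4ha2, which hydroxylates collagen, read 2.84 and 2.54 on the vehicle arrays, 3.41 and 3.57 with TP-16, 3.82 and 3.63 with anti-PD-1, and 3.57 and 3.58 with the combination. It rose by 0.89 in the combination (SE 0.15, adjusted p = 0.0124, 1.85-fold). Hif1a itself differed by 0.25 (SE 0.11, adjusted p = 0.145), from 3.55 ± 0.121 to 3.80 ± 0.094 (mean ± SD of 2 arrays), Egln1 by 0.31 (adjusted p = 0.0823) and Egln3 by 0.53 (adjusted p = 0.195). The angiogenic factor Vegfa differed by 0.34 (SE 0.13, adjusted p = 0.0950), the vasodilator peptide Adm by 0.11 (adjusted p = 0.745), Car9 by 0.36 (SE 0.27, adjusted p = 0.340) and Bnip3 by -0.02 (SE 0.22, adjusted p = 0.948), which was 0.54 after quantile normalization and 0.59 with cyclic loess (not called after quantile normalization, adjusted p = 0.0806). The stress-induced mTOR inhibitor Ddit4 differed by 0.82 (SE 0.29, adjusted p = 0.0763), P4ha1 by 0.59 (adjusted p = 0.0767), and Ero1l (an oxidase that forms disulfides in the endoplasmic reticulum), the stress-responsive Ndrg1 and the HIF target Ankrd37 by 0.17 to 0.24 (adjusted p of 0.313 or more). With quantile normalization 4 of these 8 targets (P4ha2, Ddit4, Ndrg1, Ero1l) and Egln1 were called higher (all genes 13%).

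**Figure D3:**
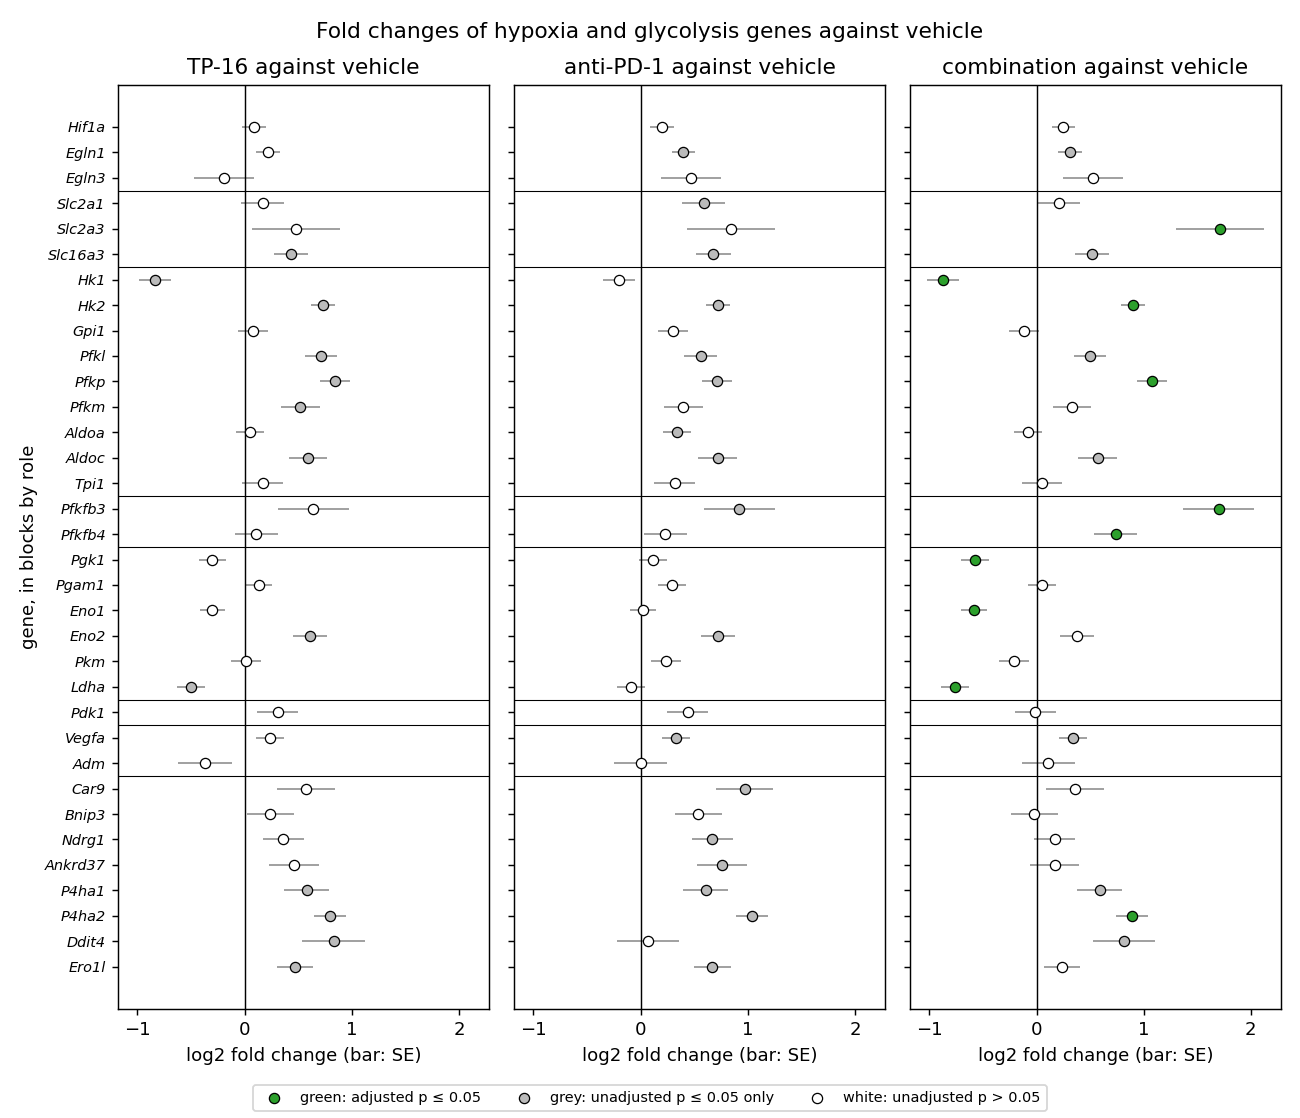
Log2 fold change (point) and its SE (bar) of each gene against vehicle in each of the 3 treated groups, in blocks by role. Filled green points pass adjusted p, 6 above and 4 below 0 in the combination (Ldha, Eno1 and Pgk1 of the 4 turn above 0 after quantile normalization) and none for the single agents; grey points pass unadjusted p of at most 0.05.

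The count of calls in the combination rested on single arrays and on the normalization. It was 18 after quantile normalization, all higher (all genes 13% higher and 14.5% lower), and 22 with cyclic loess, all higher (13.8% and 13.5%). In both, 33 of 34 members lay above 0, against 25 with the 75th percentile, and 6 of the 10 genes called with the 75th percentile were called, 5 in the same direction and Pgk1 in the opposite one. The difference follows signal: among the 1120 genes with a level above 6, the median of all genes in the combination was -0.81 with the 75th percentile and -0.07 after quantile normalization. The 11 members in that range had medians of -0.12 and 0.54. Without combination replicate 2, 0 of 34 were called, with 12 at unadjusted p of at most 0.05.

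Probes of the same gene did not always move together. Of 16 members with more than 1 tested probe, 10 had a probe on each side of 0 in the combination, among them Ldha, Hk1 and Eno1. Of the 32 dimmer probes, 20 lay above 0, and of the 16 brightest, 9. Pkm differed by -0.21 at its brightest probe (chr9:59527118-59527177, mm9) and by 0.44 at a dimmer one (chr9:59518501-59519397, adjusted p = 0.0292). The 2 were at 0.52 and 0.65 after quantile normalization. With that normalization, the members with a probe on each side of 0 were Eno1, Hk1, Pdk1, Pgk1 and Vegfa alone. The 2 Ldha probes were then both above 0, at 0.02 and 0.43.

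**Figure D4:**
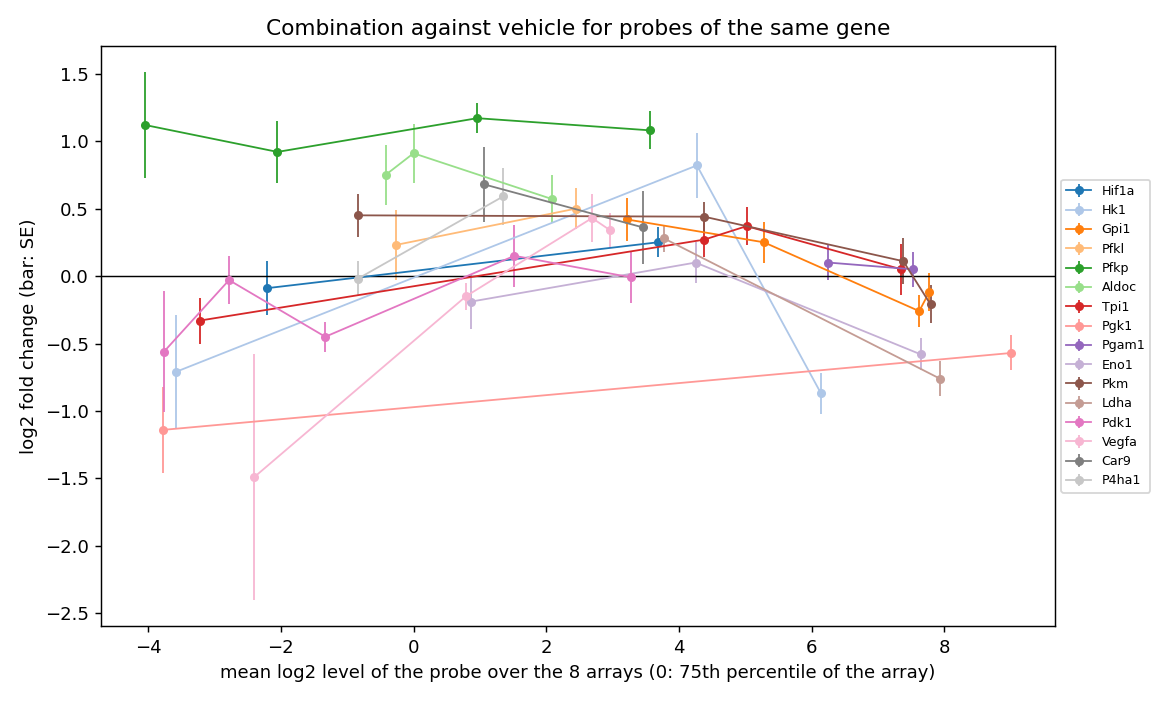
Log2 fold change in the combination against vehicle (bars, SE) of each tested probe of the 16 genes with more than 1, against the mean log2 level of the probe over the 8 arrays; lines join probes of 1 gene. Pfkp stays between 0.92 and 1.17 over its whole range, while Hk1, Ldha, Eno1, Gpi1 and Pkm lie below 0 at their brightest probes, of which Hk1 alone stays there after quantile normalization.

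Anti-PD-1 alone had 0 of 34 members past adjusted p (all genes 0.0744%), with the smallest at 0.176. Yet the members leaned one way: 17 were higher at unadjusted p of at most 0.05 (all genes 5.04%) and 0 lower (all genes 10%). After quantile normalization 24 were higher and 0 lower (all genes 7.88% and 7.01%), and with cyclic loess 25 and 0 (7.61% and 6.53%). Both anti-PD-1 arrays lay above both vehicle arrays for 27 members (all genes 15.7%) and below both for 2 (all genes 35.3%). The median was 0.46, against -0.10 over all genes, and 0.50 and 0.52 with quantile and cyclic loess normalization.

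The largest rise was that of P4ha2, by 1.04 (SE 0.15, unadjusted p = 0.000456, adjusted p = 0.176), the 1 member past the methods' threshold (all genes 1.9%). Car9, which hydrates carbon dioxide at the cell surface and marks hypoxic tumor regions, read 3.27 and 2.70 on the vehicle arrays and 4.08 and 3.83 with anti-PD-1, a difference of 0.97 (SE 0.27, adjusted p = 0.275). Both antibody arrays were above the 2 TP-16 arrays (3.30 and 3.80) and the 2 combination arrays (3.53 and 3.16) as well. Pfkfb3 differed by 0.92 (SE 0.33, adjusted p = 0.321), Hk2 by 0.72 (SE 0.11, adjusted p = 0.195), Pfkp by 0.71 (SE 0.14, adjusted p = 0.234), Eno2 by 0.72 (SE 0.16, adjusted p = 0.241) and Slc16a3 by 0.68 (SE 0.16, adjusted p = 0.241). Slc2a1 differed by 0.59 (SE 0.20, adjusted p = 0.305), Bnip3 by 0.54 (SE 0.22, adjusted p = 0.349) and Pdk1 by 0.44 (SE 0.19, adjusted p = 0.358). Hif1a differed by 0.20, Vegfa by 0.33, Pkm by 0.24 and Pgk1 by 0.12 (adjusted p of 0.343 or more). The largest negative difference was -0.20, at Hk1, and Ldha followed at -0.09, which turned to 0.07 after quantile normalization. The dimmer Ldha probe differed by 0.48 (adjusted p = 0.241), and the dimmer tested probes of Hk1 by 0.47 and -0.35 (0.403 and 0.715).

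TP-16 alone had 0 of 34 past adjusted p (all genes 0.0558%), with the smallest at 0.0678. At unadjusted p of at most 0.05, 11 were higher (all genes 6.01%) and 2 lower (all genes 21.8%), which became 20 and 1 after quantile normalization (11.2% and 10.9%) and 22 and 1 with cyclic loess (9.66% and 12.5%). With the 75th percentile, 0 were higher past the methods' threshold (all genes 1.56%). Both TP-16 arrays lay above both vehicle arrays for 18 members (all genes 16.5%) and below both for 5 (all genes 41.5%). The median was 0.27, against -0.15 over all genes, and rose to 0.51 and 0.52 with quantile and cyclic loess normalization. By unadjusted p the leading members were Hk2 (0.73, SE 0.11, adjusted p = 0.0678), Pfkp (0.84, SE 0.14, adjusted p = 0.0803), P4ha2 (0.80, SE 0.15, adjusted p = 0.0847) and Pfkl (0.71, SE 0.15, adjusted p = 0.0933), with Hk1 at -0.84 (SE 0.15, adjusted p = 0.0823). With normexp background correction 9 members were called (7 higher and 2 lower, with all genes at 2.62% and 17.2%). With trended and robust moderation 5 were called (4 higher, 1 lower), where the share of all genes was not counted.

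Ddit4 was the member with the widest gap between the single agents. It read 3.63 and 3.70 on the vehicle arrays, 4.16 and 4.84 with TP-16, 3.42 and 4.05 with anti-PD-1, and 4.56 and 4.43 with the combination. The 3 comparisons with vehicle share its 2 arrays, and their values are given side by side. For Ddit4 the arrays with TP-16 were the higher ones, by 0.83 for TP-16 (SE 0.29, adjusted p = 0.155) and 0.07 for anti-PD-1 (adjusted p = 0.933). Ldha differed by -0.50 with TP-16 (SE 0.13, adjusted p = 0.102), which was -0.08 after quantile normalization. Its dimmer probe differed by 0.54 (adjusted p = 0.0852). The dimmer tested probes of Hk1 differed by 0.45 and -0.52 (adjusted p = 0.276 and 0.471), and those of Pkm by 0.33 to 0.76 (0.0672 or more). Slc2a1, Vegfa, Pdk1, Car9, Bnip3 and Pfkfb3 differed by 0.17 to 0.64, Hif1a by 0.09, Pkm by 0.01 and Pgk1 by -0.30, with adjusted p of 0.209 or more. The latter was 0.26 after quantile normalization. Eno1 differed by -0.30 with TP-16 (SE 0.12, adjusted p = 0.199) and lay above 0 after quantile normalization, as did every late-step gene but Ldha.

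**Figure D5:**
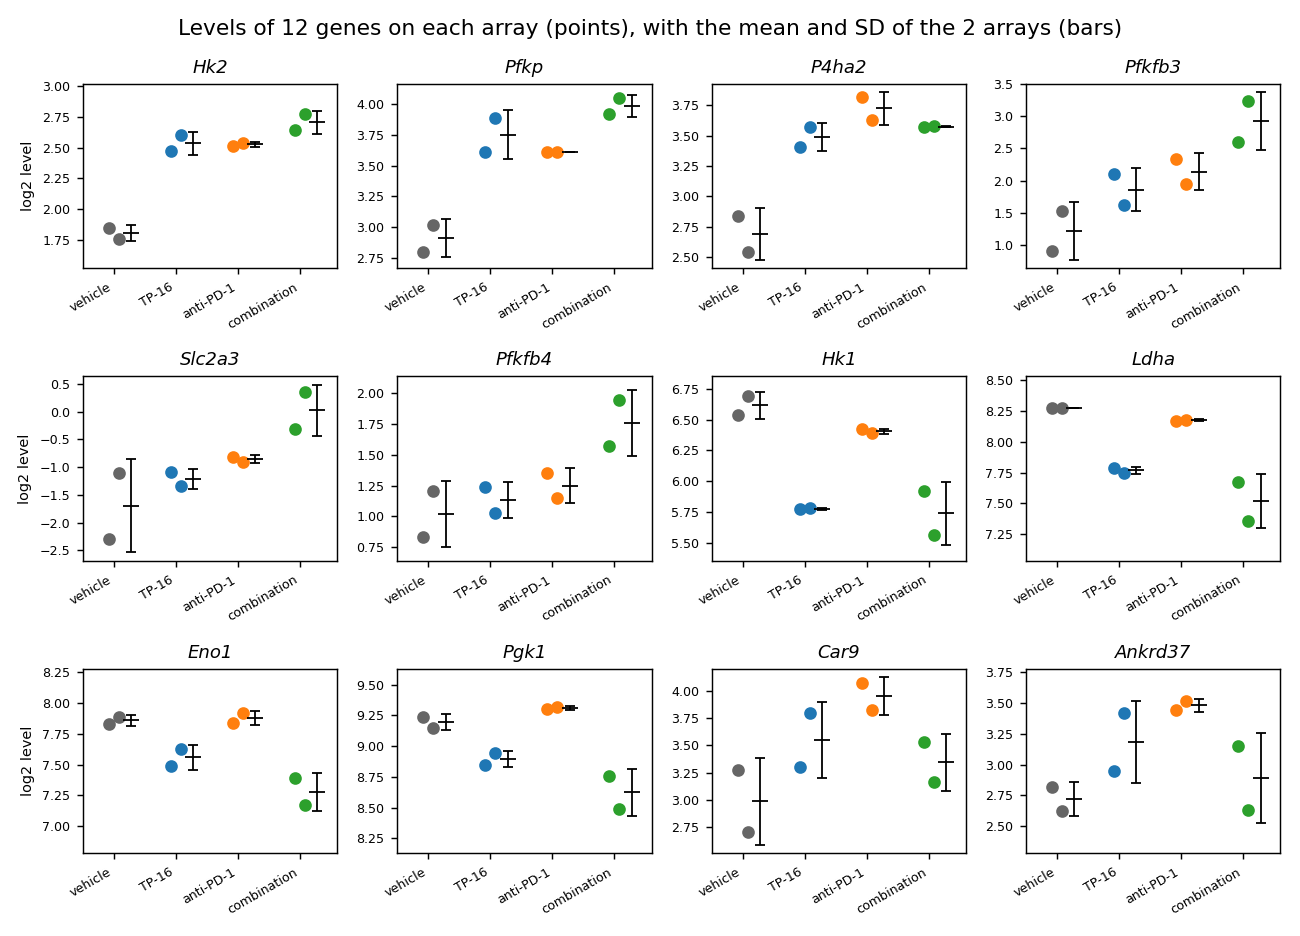
Log2 level (75th percentile of the array at 0) of 12 genes on each array (points), with the mean and SD of the 2 arrays of a group (bars). Hk2, Pfkp and P4ha2 are low on the vehicle arrays alone, Pfkfb3, Slc2a3 and Pfkfb4 are highest with the combination, Hk1, Ldha, Eno1 and Pgk1 are low with TP-16 and the combination on this scaling (above 0 against vehicle for Ldha, Eno1 and Pgk1 in the combination after quantile normalization), and Car9 and Ankrd37 are highest with anti-PD-1.

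Set against the single agents, the combination had 0 members past adjusted p in either comparison. Against TP-16, 4 were higher at unadjusted p of at most 0.05 (Pfkfb3, Slc2a3, Egln3 and Pfkfb4, by 1.06, 1.24, 0.72 and 0.63) and 0 lower, with all genes at 9.36% higher, 14.4% lower and 0% past adjusted p. Against anti-PD-1, 3 were higher (Ddit4, Pfkfb4 and Pfkp, by 0.76, 0.51 and 0.37; all genes 8.06%) and 11 lower (all genes 21.1%), with 0.014% of all genes past adjusted p. The 11 included Pgk1 (-0.69), Hk1 (-0.66), Ldha (-0.66), Eno1 (-0.60), Ankrd37 (-0.59) and Bnip3 (-0.56). The smallest adjusted p was 0.0722, at Pgk1, which turned to 0.05 after quantile normalization, and at Ldha. This lean depended on the normalization. The median against anti-PD-1 was -0.20 with the 75th percentile (all genes -0.14). It was 0.05 after quantile or cyclic loess normalization (all genes -0.03 and -0.02). There, 1 and 0 members were lower at unadjusted p of at most 0.05 (all genes 12.8% and 12.4%). With normexp the median was -0.14 (all genes -0.19), with 10 lower at that p (all genes 34.7%). In the same way, anti-PD-1 had the highest mean of the 4 groups for 20 members and the combination for 9 with the 75th percentile, 19 and 10 with normexp, but 12 and 19 after quantile normalization. Vehicle was the lowest group for 23 members with the 75th percentile and for 30 after quantile normalization. Such counts of the highest or lowest group were not made over all genes, so that they describe the members alone.

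The departure from additivity is the combination's difference from vehicle less the sum of the 2 single differences. It was called for 0 of 34 members (0% of all genes), and the smallest adjusted p was 0.457, at P4ha2. At unadjusted p of at most 0.05, 13 members were below 0 (all genes 2.2%) and 0 above (all genes 4.81%). In all, 28 of 34 were below 0, with a median of -0.47 against 0.00 over all genes. The median was -0.28 after quantile normalization (all genes -0.03) and -0.31 with cyclic loess (all genes 0.01). There, 11 and 12 members were below 0 at unadjusted p (all genes 3.41% and 2.73%). The largest departures were those of Car9 (-1.18, SE 0.39, adjusted p = 0.595), Ankrd37 (-1.05, SE 0.33, adjusted p = 0.581), P4ha2 (-0.96, SE 0.21, adjusted p = 0.457) and Eno2 (-0.95, SE 0.23, adjusted p = 0.485). The vehicle arrays enter every member's value in this contrast, so that their spread is shared by all. The 6 members above 0 were Egln3, Slc2a3, Hk1, Pfkfb3, Pfkfb4 and Adm, at 0.14 to 0.48 (adjusted p of 0.844 or more). Of the other called risers, Hk2 departed by -0.55 (SE 0.16, adjusted p = 0.551) and Pfkp by -0.47 (adjusted p = 0.701). The 6 endothelium markers were all below 0 against vehicle with TP-16 (median -0.66) and with anti-PD-1 (median -0.31) and all above 0 with the combination (median 0.34), with 0 called in each. Their departures from additivity were all above 0 (median 1.14), 5 of 6 at unadjusted p of at most 0.05. So were those of the 5 tested red blood cell markers (median 1.24, 4 of 5 at that p) and the 7 macrophage markers (median 0.56, 1 of 7). The 7 T and NK cell markers had a median of -0.78, with 6 of 7 below 0. Medians were also below 0 for skeletal muscle (-0.55, 7 of 8 markers below 0), epidermis (-5.38, 3 of 3), adipose tissue (-0.50, 3 of 5) and cell division (-0.08, 6 of 7). They were above 0 for fibroblasts (0.27), neutrophils (0.76) and colon epithelium (0.16). The part of these cells in the members' departures was not tested.

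Genes of the same pathways outside the list were counted in the same comparison. Of 26 tested other glycolysis and glucose genes, 7 were called higher (all genes 9.6%) and 2 lower (all genes 26%), with a median of 0.22. After quantile normalization 9 were higher and 0 lower (all genes 13% and 14.5%), with a median of 0.46. With cyclic loess these were 10 and 0 (13.8% and 13.5%, median 0.42), and with normexp 9 and 4 (12.6% and 41.3%, median 0.09). Hk3, a hexokinase of myeloid cells, read 1.76 and 3.31 on the vehicle arrays, 3.96 and 3.52 with TP-16, 4.14 and 3.84 with anti-PD-1, and 4.84 and 5.49 with the combination, a rise of 2.63 (SE 0.52, adjusted p = 0.0178). Ldhb, the heart-type lactate dehydrogenase subunit, rose by 1.99 (SE 0.37, adjusted p = 0.0157). The liver glycogen phosphorylase Pygl rose by 1.41 (adjusted p = 0.0121), the pyruvate dehydrogenase kinases Pdk2 by 1.08 (0.0210) and Pdk4 by 1.83 (0.0458), glycogen synthase Gys1 by 0.45 (0.0274) and Pygb by 0.48 (0.0459). The 2 lower genes, Eno3 (-0.48) and Slc2a8 (-0.43), were not called after quantile normalization, at -0.21 and -0.22.

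Of 31 tested other oxygen sensing and hypoxia genes, 7 were called higher (all genes 9.6%) and 2 lower (all genes 26%), with a median of 0.12. After quantile normalization 9 were higher and 1 lower (all genes 13% and 14.5%), with a median of 0.42. With cyclic loess these were 12 and 1 (13.8% and 13.5%, median 0.52), and with normexp 10 and 2 (12.6% and 41.3%, median 0.20). Epas1, which encodes HIF-2α, read 2.50 and 2.20 on the vehicle arrays, 2.64 and 1.97 with TP-16, 2.81 and 2.64 with anti-PD-1, and 3.45 and 3.95 with the combination. The combination arrays were the highest, with a rise of 1.35 (SE 0.28, adjusted p = 0.0203). Gpr146, Rora, Plin2, Car12, Ak4 and Loxl2 rose by 0.73 to 1.04 (adjusted p of 0.0109 to 0.0444). The secreted glycoprotein Stc2 fell by 1.12 (adjusted p = 0.0109), to -0.90 after quantile normalization, and Cited2 by 0.47 (adjusted p = 0.0357), which was not called there. Of 18 genes of the pentose phosphate path and pyruvate oxidation, 0 were higher and 4 lower, against 26% of all genes lower, and the median of -0.22 lay near the -0.24 of all genes. After quantile normalization 1 was higher and 2 lower. The 4 were the pyruvate carrier subunits Mpc1 and Mpc2 (-0.64 and -0.65), the pyruvate dehydrogenase subunit Pdhb (-0.56) and Pgls (-0.94), at -0.39, -0.45, -0.29 and -0.36 after quantile normalization. With TP-16 or anti-PD-1 alone, 0 genes of the 3 lists were called.

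Cell type markers moved beside these genes, and their part in the results was not tested. As summed linear levels, relative to the 75th percentile of each array, 7 T and NK cell markers gave 2.99 and 9.96 with vehicle, 12.7 to 15.9 with the single agents and 19.2 and 33.1 with the combination, with 3 of 7 called higher. The 7 macrophage markers gave 108 and 136 with vehicle, 124 to 151 with the single agents and 198 and 293 with the combination, with 6 of 7 called higher. The 7 fibroblast markers gave 215 to 246 with vehicle and 394 to 410 with the combination, with 5 of 7 called higher. The 7 neutrophil markers gave 106 to 116 with vehicle and 55.2 to 69.6 with the combination, but the list went both ways. S100a8 and S100a9 were called lower (-1.09 and -1.20), 2 of 7 against 26% of all genes, while Camp, Ly6g and Mpo lay above 0 (1.30, 1.09 and 0.24, not called). The 6 endothelium markers gave 9.87 to 11.3 with vehicle, 5.62 to 9.08 with the single agents and 10.5 to 14.5 with the combination, and the 5 adipose markers 32.1 to 33.4, 15.2 to 26.4 and 24.9 to 30.7, with 0 called in both lists. All 5 tested red blood cell markers were called lower, among them Hba-a1 by -2.28 (adjusted p = 0.0102), which read 8.68 and 8.07 with vehicle, 6.53 and 6.32 with TP-16, 7.04 and 7.09 with anti-PD-1 and 5.93 and 6.27 with the combination. With the single agents 0 of these 5 were called, but all 5 were lower than vehicle at unadjusted p of at most 0.05, with medians of -1.95 (TP-16) and -1.53 (antibody). The 7 cell division markers lay between 106 and 125 on all arrays, with Ccnb1 and Bub1 called lower (2 of 7, all genes 26%) and Mki67 and Top2a above 0 (0.35 and 0.38, not called). The 7 colon epithelium markers gave 74.4 and 82.8 with vehicle and 85.7 and 58.7 with the combination. Of the 5 tested, Cdx2 and Krt18 were called lower (-3.39 and -1.39), while Krt8 (-2.68, adjusted p = 0.0525), Krt20 (0.00) and Cdh1 (0.82) were not called, and Vil1 was above background on no array. Epidermis markers stood out on TP-16 replicate 2 (30.9) and anti-PD-1 replicate 2 (31.2), against 1.96 to 5.12 on the other arrays, and skeletal muscle markers ranged from 20.5 on vehicle replicate 1 to 75.6 on anti-PD-1 replicate 1.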

How the data were processed

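CT26 tumor RNA of 4 groups with 2 samples each was labelled with Cy3 and hybridized to Agilent SurePrint G3 mouse arrays. Groups, replicate numbers and doses came from the sample labels. Per array, the authors deposited scanner output made with Agilent Feature Extraction 10.7.1.1 per the submitters' processing notes, whose intensities are background-subtracted and detrended. A table of log2 values by the authors is also deposited, normalized in GeneSpring by a method the sources do not name; its sorted columns differed by at most 0.00115, and it was used as an alternative. Probe positions are those of the array annotation (mm9), and promoters are RefSeq's (GRCm38.p6).

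Control spots and 38 probes with only outlier spots were left out, spots of a probe were averaged, and the 75th percentile of each array (371.07 to 378.15 with vehicle, 530.21 to 550.81 with TP-16, 398 to 414.89 with anti-PD-1, 607.13 to 733.61 with the combination, in intensity units) was divided out before log2. Between 51.41% and 59.72% of probes were well above background on an array, and 0 spots were saturated. A probe entered the test if both arrays of some group had it well above background. Testing was done with limma 3.58.1 under R 4.3.3, in 1 fit with 1 mean per group and empirical Bayes moderation, over 31912 probes. The number of arrays limits the precision. The replicate difference of the members had an SD of 0.36 in vehicle and 0.22 to 0.28 in the other groups. On simulated data for the combination, 27% of changes of 1 and 72% of changes of 2 on the log2 scale were recovered at adjusted p, with 6 false calls. Only 100 changes of each size were placed among the 31912 probes. In the data 35.6% of tested genes were called, so that these shares do not give the recovery there.

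The members, the further pathway and marker lists and the tests were chosen with earlier results of these data known. Every member is accounted for. Full values are given for members past adjusted p (for the 5 with the smallest p where fewer passed), and 11 genes and the largest rise and fall of each vehicle comparison are named whatever their values. Alternatives were quantile and cyclic loess normalization, normexp with an offset of 50, no filter and a filter on all arrays, the authors' log2 values, the replicate block, a fit of the compared groups alone, moderation with a trend and robust priors, the methods' t-test, the mean over probes of a gene, and leaving out each array. All arrays lay on 1 slide, so that no slide block was fitted. Figures were drawn with matplotlib 3.10.9 (Python 3.11.15), and robust moderation used statmod 1.5.0.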

Additional observations from a re-analysis of the deposited data

How the results depend on the processing

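For the combination against vehicle, the 10 called members became 18 with quantile normalization and 22 with cyclic loess. They became 18 with normexp (14 higher and 4 lower, with all genes at 12.6% and 41.3%) and 18 with the authors' log2 values. The shares of all genes with quantile normalization and cyclic loess are given above, and those with the authors' values lay near the former. The count was 6 without the filter on dim probes and 16 with trended and robust moderation. It was 0 both with only the compared groups in the fit and with the methods' t-test (13 and 9 at unadjusted p). The counts under these last 4 alternatives are not set against all genes. Leaving out 1 array gave 0 to 10, with 0 without combination replicate 2. For TP-16 against vehicle the count of 0 became 9 with normexp and 5 with trended and robust moderation. For the combination against anti-PD-1 it became 4 with normexp, all lower (all genes 3.77% higher and 20.2% lower). With no share of all genes counted, it was also 4, all lower, with probes above background on all arrays and with trended and robust moderation. Without 1 array these 2 counts stayed at 0, as did those for anti-PD-1 against vehicle, the combination against TP-16 and the departure from additivity, which also stayed at 0 under every other alternative run. With the replicate block the count for the combination was 10, of which 9 were the same genes (Pfkfb4 was lost, at adjusted p = 0.0601), and the other counts stayed at 0. The labels state no pairing of samples by replicate number. The correlations of deviations between groups ran from -0.19 to 0.29, but they rest on a single replicate difference per group and cannot settle the question.

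The median of the members against vehicle moved from 0.28 to 0.55, 0.63 and 0.55 for the combination and from 0.27 to 0.51, 0.52 and 0.51 for TP-16 with quantile normalization, cyclic loess and the authors' log2 values. Leaving out 1 array gave 0.18 to 0.39 and 0.21 to 0.41, and 0.40 to 0.48 for anti-PD-1. In the combination, Ldha turned to 0.02, 0.01 and 0.03, Eno1 to 0.09, 0.14 and 0.09, and Pgk1 to 0.37, 0.34 and 0.37 with those 3 alternatives, in the same order, of which the authors' values give nearly what quantile normalization gives. With normexp they stayed lower, at -0.65, -0.47 and -0.52. Of the other values of named genes under an alternative, 302 kept their direction and side of the threshold, 59 lost the call and 10 gained one. The cause of these moves was not tested. Where an array was left out, the group's remaining array was assumed to vary like the other groups. With 2 arrays per group, the number of arrays limits what could be called, and a missing call does not show that values did not differ.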
